A study of Arabidopsis thaliana with 2 samples.

Results

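Auxin signalling was followed in Arabidopsis thaliana through 56 genes of 5 classes: 29 Aux/IAA repressors, 15 auxin response factors (ARFs), 4 TIR1/AFB receptors, 4 GH3 enzymes and 4 PIN transporters. The genes were taken from the table by identifier, from a list drawn up with earlier results of these data known. Of the 56, 22 were among the 6791 genes of the deposited table, with 7 Aux/IAA genes, 8 ARFs, 2 receptors, 3 GH3 genes and 2 PIN genes. The other 34 were outside the table and have no value here. The study sequenced RNA from wild-type plants and from the mutant ago1-27, an allele that weakens ARGONAUTE1 (AGO1), the protein that most plant microRNAs (miRNAs) work through. The series title gives the search for miRNA targets as the purpose. Growth was in long days (16 h light, 8 h dark, 20 °C) for both genotypes, no treatment is named, and the labels give flower buds as the tissue. They speak of 3 replicates per genotype, but the table holds 1 RPKM value (reads scaled by transcript length and by library size) per genotype. No difference below therefore has an SD, a replicate check or a p-value.

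Auxin acts by bringing a TIR1/AFB F-box protein together with an Aux/IAA repressor, which is then ubiquitinated and degraded. This frees ARF transcription factors, which Aux/IAA proteins hold in check with TOPLESS co-repressors. Many Aux/IAA, GH3 and SAUR genes are themselves switched on rapidly by auxin, so that repressors and conjugating enzymes form feedback loops. PIN proteins carry auxin out of cells and give its flow a direction. Several steps are under small RNA control. In Arabidopsis, miR160 targets ARF10, ARF16 and ARF17, miR167 targets ARF6 and ARF8, miR393 targets TIR1 and its AFB relatives, and small interfering RNAs made from TAS3 after its cleavage through miR390 target ARF2, ARF3 and ARF4.

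The small RNAs are shown because AGO1 carries most of them. Pairing of the miRNAs also separates the listed targets from the other ARFs and receptors searched. Sequences and coordinates are those of the RefSeq assembly TAIR10.1, written as DNA. Capitals mark the seed, bases 2 to 8. The TAS3 line is the stretch of that transcript that pairs best with ARF2, ARF3 and ARF4 together, found by search, and its ends need not be those of the natural small RNA.
miR160a (chr2:16340282-16340302, plus strand): tGCCTGGCtccctgtatgcca
miR167a (chr3:8108090-8108110, plus strand): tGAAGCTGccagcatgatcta
miR393a (chr2:16652111-16652132, plus strand): tCCAAAGGgatcgcattgatcc
TAS3 (chr3:5862205-5862225, plus strand): tttcttgaccttgtaagaccc

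Best-pairing sites were then searched for in the longest annotated transcript of all 15 ARFs and 4 receptors, and those of the 6 listed targets in the table follow, each from a coding exon. Capitals mark bases that pair with the small RNA, and lower case marks unpaired bases and G:U pairs.
ARF16 (chr4:14704141-14704161, minus strand): gGGttTACAGGGAGCCAGGCA
ARF17 (chr1:29274189-29274209, plus strand): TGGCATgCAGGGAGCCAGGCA
ARF6 (chr1:10686478-10686498, minus strand): gAGATCAgGCTGGCAGCTTgt
TIR1 (chr3:23273727-23273748, minus strand): GagaCAATGCGATCCCTTTGGA
AFB2 (chr3:9870237-9870258, plus strand): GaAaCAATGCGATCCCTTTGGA
ARF3 (chr2:14325941-14325961, minus strand): GGGTCTTgCAAGGTCAAGAAA

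ARF17 paired with miR160a with 1 G:U pair and no unpaired base, and ARF16 with 2 unpaired bases and 1 G:U pair. Across the 3 listed miR160 targets the best site had 1 to 3 unpaired or G:U positions, against 8 to 10 in the 16 other ARFs and receptors. The corresponding ranges were 3 to 4 against 7 to 9 for miR167a, and 2 to 4 against 6 to 10 for miR393a. For miR393a all 4 receptors are listed targets, so the comparison is with the 15 ARFs and not within the receptor family. For the TAS3 stretch they were 1 to 2 against 7 to 9, but it was picked for its pairing with ARF2, ARF3 and ARF4. That separation was therefore built in by the choice. The miRNA targets were listed as known targets, so their separation describes the list and tests nothing. Pairing did not sort the listed targets in the table from those outside it: AFB2, in the table, and AFB3, outside it, both had 2 such positions.

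The rows were selected for a difference. The lowest ratio of ago1-27 to wild type above 1 was 1.500054, and 1 row alone lay between 1.5-fold lower and 1.5-fold higher. A gene outside the table may thus have differed by less, or may have missed a rule not given in the sources used here. Values at low levels moved in steps that gave libraries of 10453032 to 13887069 reads for wild type and 11407616 to 12294210 reads for ago1-27. Intervals are 95% exact (Clopper-Pearson) intervals on the ratio of reads at the depth of 1 mean library, and cover counting error only. AGO1 itself was at 53.1 RPKM in wild-type plants and 175 in the mutant, but the allele keeps its transcript and so this does not check the labels. Of 9 genes of flower organ identity 3 were in the table. AP1 was at 0.0779 RPKM in wild-type plants and 0.733 in the mutant, LFY at 0.151 and 1.17, and SEP4 at 12.5 and 6.22, so these markers differed between the genotypes. AP3, PI, AG, SEP1, SEP2 and SEP3 were outside the table. Of 4 leaf markers 2 were in it, with RCA, the activase of Rubisco, at 5341 RPKM in wild-type plants and 3390 in the mutant, and CAB2 at 74.5 and 25.3. The low AP1 and LFY and the high RCA go against the label of flower buds, while SEP4, at 12.5 and 6.22 RPKM, does not. The floral markers outside the table have no value to check it, so the samples are called by genotype below. All 4 seed markers were in it and were higher in ago1-27, at 0.116 to 1.37 RPKM in wild type and 5.92 to 15.6 in ago1-27. All 3 pollen markers were in it, between 0.377 and 1.43 RPKM in wild-type plants and between 0.167 and 2.33 in ago1-27. The part of tissue make-up in the auxin results was not tested, and in bulk RNA fewer cells of a type and less RNA per cell cannot be told apart.

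The classes differed in direction. Of the 7 Aux/IAA genes in the table, 6 were lower in ago1-27, whereas 6 of the 8 ARFs and both receptors were higher. GH3 genes were lower in 2 of 3 cases. In all, 11 of the 22 members were higher and 11 lower, beside 69.4% of all rows higher and 30.6% lower. A member was called when log2(RPKM + 1) differed by at least 1 and RPKM reached 1 in either genotype. IAA1, IAA3 and PIN7 were called lower and no member was called higher, beside 10.5% of 6606 rows called lower and 11.3% called higher. The pseudocount of 1 in this threshold understates the change of low genes. The median difference in log2(RPKM + 1) was -0.70 for the 7 Aux/IAA genes and 0.60 for the 8 ARFs, and 0.62 for all 6606 rows compared. Summed over the members in the table, RPKM was 178 in wild type and 113 in ago1-27 for Aux/IAA genes, and 108 and 143 for ARFs. The sums were 69.3 and 104 for receptors and 60.7 and 35.5 for GH3 genes. The difference between the classes was not tested.

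**Figure D1:**
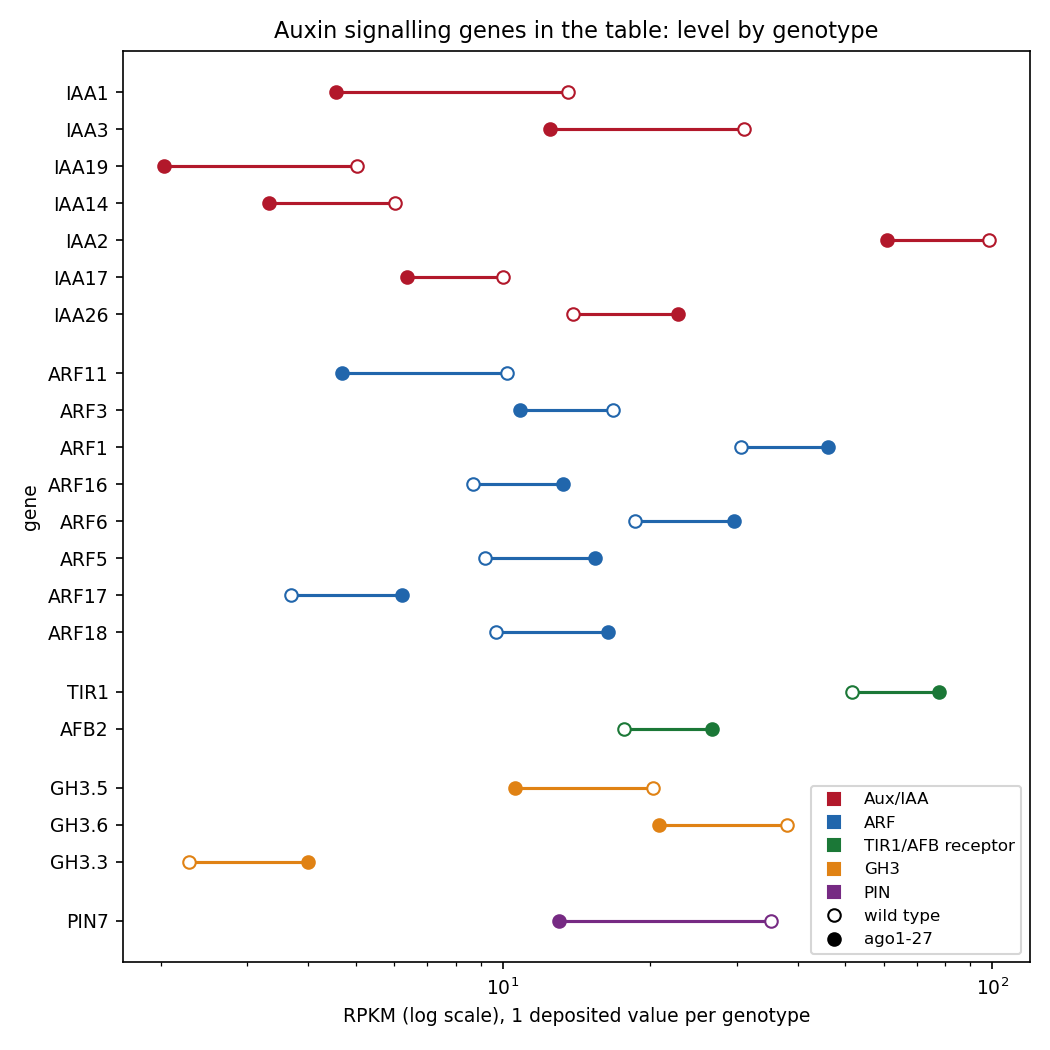
RPKM of 21 auxin signalling genes in the table on a log axis, with 1 deposited value per genotype (open circles wild type, filled circles ago1-27), coloured by class. Filled circles lie left of the open ones for 6 of 7 Aux/IAA genes and right of them for 6 of 8 ARFs and both receptors.

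The Aux/IAA repressors included IAA1, the member with the largest fold difference in the table. IAA1 (AT4G14560), an auxin-induced repressor whose stabilised form makes plants auxin resistant (axr5), was at 13.6 RPKM in wild-type plants and 4.55 in the mutant. The ago1-27 value was 2.99-fold lower (95% interval 2.18 to 4.22), and the gene lies on chromosome 4 from 8360996 to 8362033. IAA3 (AT1G04240, SHY2), which restrains auxin responses in the root meristem, was at 31.0 RPKM in wild-type plants and 12.5 in the mutant, 2.49-fold lower (2.11 to 2.94). IAA3 lies on chromosome 1 from 1128149 to 1129689 and overlaps AT1G04230 on the opposite strand. With libraries that do not keep strand, reads of the pair cannot be told apart over the shared stretch: 33.8% of the 50-base windows of IAA3 also occurred in AT1G04230, which was outside the table.

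IAA19 (AT3G15540, MSG2), a repressor of ARF7 in phototropism and gravitropism, missed the threshold narrowly, at -0.99 in log2(RPKM + 1). It was at 5.03 RPKM in wild-type plants and 2.03 in the mutant. These values equal 51 and 24 whole reads of 1 library per genotype, and the ratio was 2.47-fold lower with a wide interval of 1.49 to 4.20. IAA2 (AT3G23030), a close relative of IAA1, had the highest wild-type RPKM of the members in the table, at 98.2. It stood at 61.0 in ago1-27, 1.61-fold lower (1.49 to 1.74). IAA14 (AT4G14550, SLR), the repressor that blocks lateral root initiation when stabilised, was at 6.03 RPKM in wild-type plants and 3.32 in the mutant, 1.82-fold lower (1.33 to 2.45). IAA17 (AT1G04250, AXR3) was at 9.995 RPKM in wild-type plants and 6.35 in the mutant, 1.57-fold lower (1.22 to 2.04). IAA2, IAA14 and IAA17 were not called.

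IAA26 (AT3G16500), a phytochrome-associated protein, was the single Aux/IAA gene with a higher value, at 13.9 RPKM in wild-type plants and 22.8 in the mutant, a ratio of 1.64 (1.43 to 1.89). The other 22 Aux/IAA genes were outside the table. They are IAA4 to IAA13, IAA15, IAA16, IAA18, IAA27, IAA28 and IAA29, and also IAA20 and IAA30 to IAA34, proteins that lack all or part of the degron through which TIR1 binds.

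Of the 6 lower Aux/IAA genes 5 belong to neighbouring pairs, counted here as less than 20 kb apart. This grouping was not planned, so it is a description. IAA3 and IAA17 lie 6388 bases apart on chromosome 1, IAA14 and IAA1 10732 bases apart on chromosome 4, and IAA2 and IAA7 12510 bases apart on chromosome 3. In each pair the genes point away from each other with no protein-coding gene between. Both members were lower in the pairs of IAA3 with IAA17 and of IAA14 with IAA1, and IAA7 was outside the table. Among the 29 listed Aux/IAA genes no other such pair was found.

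ARFs bind TGTC elements in promoters, so the 300 bases before the annotated start of each gene were searched on both strands for TGTCTC, the classical auxin element, and TGTCGG, a high-affinity form. The wider form TGTCNN, which contains both, was in 80.6% of 27431 promoters of protein-coding genes and so separates little. TGTCTC was in 13.0% of all promoters, in 12.9% of those of the rows of the table lower in ago1-27, in 11 of 29 Aux/IAA promoters (37.9%), in 3 of the 6 lower Aux/IAA genes and in 8 of the 22 Aux/IAA genes outside the table. It was in 5 of the 11 lower and 2 of the 11 higher members. TGTCGG was in 4.91% of all promoters, and in 6 of 29 Aux/IAA promoters. CACGTG, the G-box, was in 7.09% of all promoters. It was in 4 of the 29 Aux/IAA promoters, including that of IAA19, and in 0 of the 15 ARF promoters. A match describes these letters only.

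The 3 promoters of lower Aux/IAA genes that hold the classical auxin element follow, with that element, the high-affinity form and the G-box, on either strand, in capitals. That of IAA1 has the classical element 135 bases and the high-affinity form 36 bases before the start, both on the opposite strand. That of IAA3 has 1 classical element, 273 bases before the start on the opposite strand. That of IAA19 has 3 classical elements, 184, 145 and 128 bases before the start, and the G-box at 70.
IAA1 (chr4:8360696-8360995, plus strand): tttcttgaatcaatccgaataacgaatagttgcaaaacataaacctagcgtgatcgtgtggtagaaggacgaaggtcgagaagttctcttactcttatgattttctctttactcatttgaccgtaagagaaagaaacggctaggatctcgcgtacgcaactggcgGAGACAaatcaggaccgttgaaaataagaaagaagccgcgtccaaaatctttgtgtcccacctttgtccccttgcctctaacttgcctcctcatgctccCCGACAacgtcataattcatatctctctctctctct
IAA3 (chr1:1129690-1129989, minus strand): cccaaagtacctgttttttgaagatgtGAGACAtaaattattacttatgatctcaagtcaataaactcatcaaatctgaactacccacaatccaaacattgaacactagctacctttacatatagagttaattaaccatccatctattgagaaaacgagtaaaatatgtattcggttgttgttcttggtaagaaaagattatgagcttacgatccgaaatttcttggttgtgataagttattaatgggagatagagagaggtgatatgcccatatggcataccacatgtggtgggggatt
IAA19 (chr3:5263701-5264000, plus strand): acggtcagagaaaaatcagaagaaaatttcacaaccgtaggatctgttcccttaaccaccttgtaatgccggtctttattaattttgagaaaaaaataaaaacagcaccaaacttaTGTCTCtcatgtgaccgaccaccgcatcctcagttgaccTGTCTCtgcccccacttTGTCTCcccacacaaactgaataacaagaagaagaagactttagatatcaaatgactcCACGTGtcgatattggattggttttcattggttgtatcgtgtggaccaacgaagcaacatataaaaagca

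**Figure D2:**
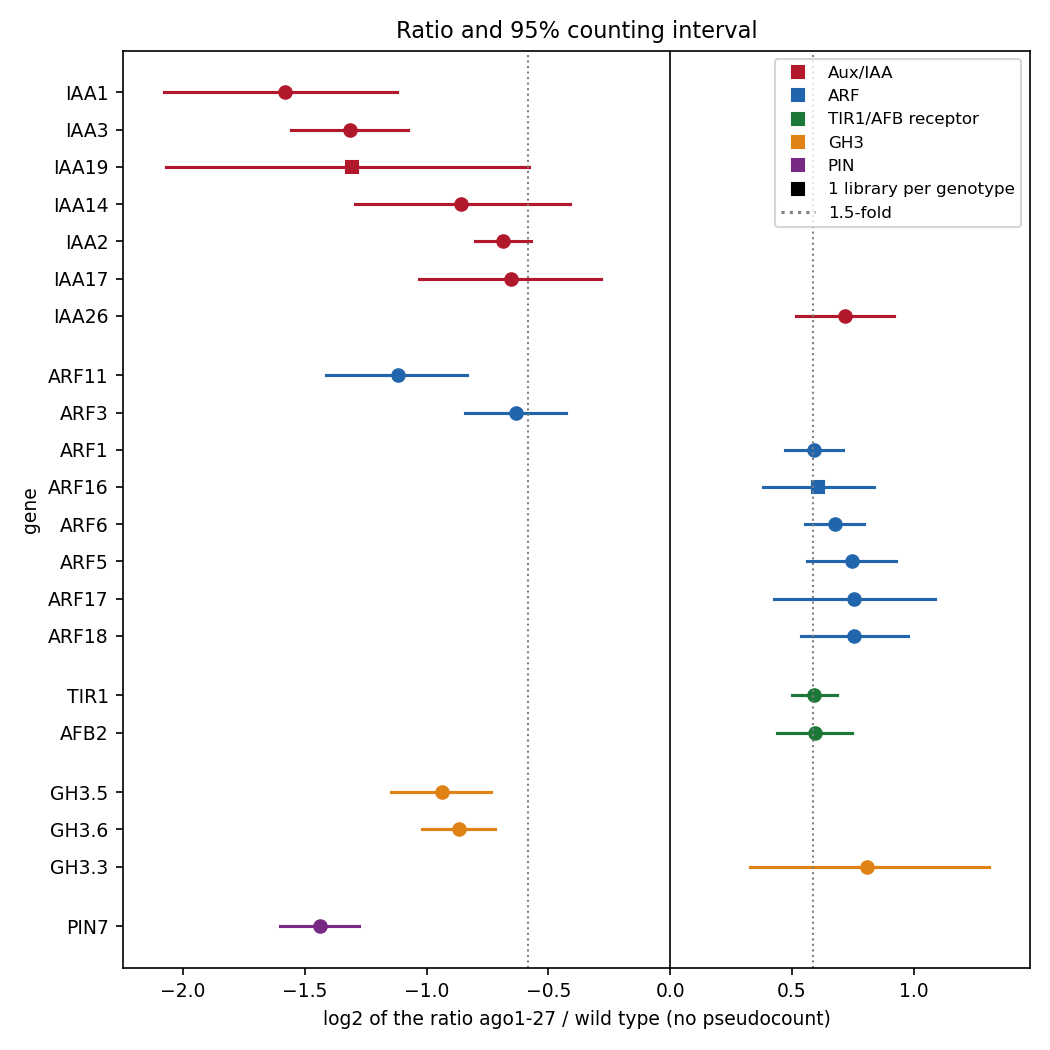
Ratio of ago1-27 to wild type on a log2 axis without pseudocount for 21 members, with 95% counting intervals at the depth of 1 library. Squares mark IAA19 and ARF16, whose values equal whole reads of 1 library per genotype, and dotted lines mark 1.5-fold; the higher ARFs and receptors lie beside the upper line, near 1.5-fold to 1.69-fold, and IAA1, PIN7 and IAA3 lie farthest below.

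Of the 8 ARFs with a row, 6 were higher, a share near the 69.4% of all rows, and no ARF was called in either direction. Both activating ARFs in the table were higher. ARF5 (AT1G19850, MONOPTEROS), which acts in embryo patterning and flower initiation, was at 9.19 RPKM in wild-type plants and 15.4 in the mutant, a ratio of 1.68 (1.48 to 1.90). ARF6 (AT1G30330), which acts with ARF8 in stamen and petal growth, was at 18.6 RPKM in wild-type plants and 29.7 in the mutant, a ratio of 1.597 (1.47 to 1.74). The activators ARF7, ARF8 and ARF19 were outside the table. The precursor MIR167D, which encodes a miR167, was at 3.25 RPKM in wild-type plants and 1.44 in the mutant, from about 15 and 6 reads, with an interval on the ratio from 0.126 to 1.08.

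The repressing ARFs in the table held 2 targets of miR160, both higher, and 3 ARFs with no listed small RNA, of which ARF1 and ARF18 were higher and ARF11 lower. ARF17 (AT1G77850) was at 3.69 RPKM in wild-type plants and 6.23 in the mutant, a ratio of 1.69 (1.34 to 2.12). ARF16 (AT4G30080) was at 8.696 RPKM in wild-type plants and 13.3 in the mutant, equal to 285 and 357 whole reads of 1 library per genotype, a ratio of 1.52 (1.301 to 1.79). ARF16 acts with ARF10 in root cap formation, and ARF17 in leaf, root and pollen development. ARF10, the third miR160 target, was outside the table. Among those with no listed small RNA, ARF1 (AT1G59750), which takes part in floral organ ageing, was at 30.7 RPKM in wild-type plants and 46.2 in the mutant, a ratio of 1.505 (1.38 to 1.64). ARF18 (AT3G61830) was at 9.695 and 16.4 RPKM, a ratio of 1.69 (1.45 to 1.97).

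ARF3 and ARF11 were the ARFs with lower values. ARF3 (AT2G33860, ETTIN), which patterns the gynoecium and the lower leaf side and is repressed through TAS3, was at 16.8 RPKM in wild-type plants and 10.8 in the mutant, 1.55-fold lower (1.34 to 1.80). The other ta-siRNA targets, ARF2 and ARF4, were outside the table, as was TAS3 itself. ARF11 (AT2G46530), with no listed small RNA, was at 10.2 RPKM in wild-type plants and 4.695 in the mutant, 2.17-fold lower (1.78 to 2.67), and missed the threshold at -0.98 in log2(RPKM + 1). ARF9, also a repressing ARF, was outside the table. ARF11 had a larger fold than any other ARF in the table.

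Both auxin receptors in the table were higher by almost the same ratio. TIR1 (AT3G62980), the founding receptor, was at 51.6 RPKM in wild-type plants and 77.7 in the mutant, a ratio of 1.51 (1.41 to 1.61). AFB2 (AT3G26810) was at 17.7 RPKM in wild-type plants and 26.7 in the mutant, a ratio of 1.51 (1.36 to 1.68). AFB1 and AFB3 were outside the table. On the RPKM scale TIR1 ranked below IAA2 in wild type and above it in ago1-27. The receptor ratios lay at the edge of the selection: 1.76% of the higher rows had a ratio no larger than that of TIR1, and 2.36% one no larger than that of AFB2. For the 6 higher ARFs these shares ran from 1.21% for ARF1 to 39.7% for ARF18, so all lay below the median ratio of higher rows, 1.77.

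**Figure D3:**
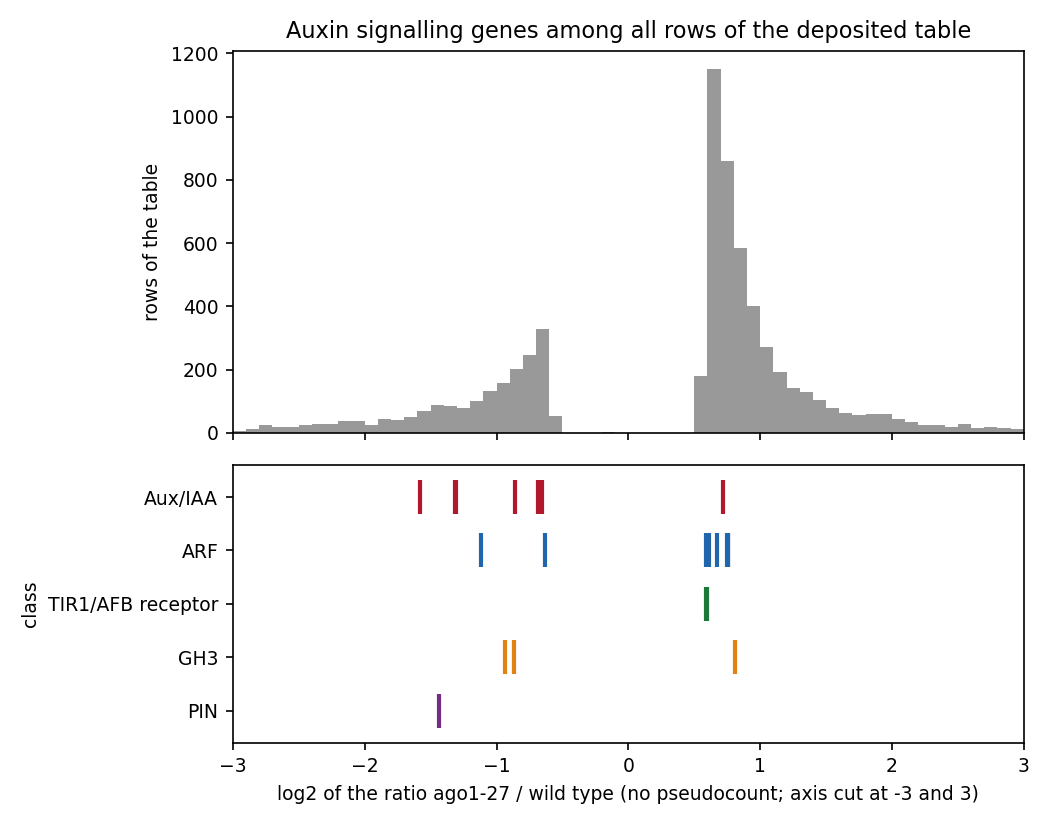
Histogram of the log2 ratio of ago1-27 to wild type over the rows of the table (no pseudocount, axis cut at -3 and 3), with 1 tick for each of 21 auxin signalling genes below, by class. The gap around 0 is the selection of the table at 1.5-fold. Both receptors, ARF1 and ARF16 sit at its right edge. The other higher members lie farther right, up to a ratio of 1.75 for GH3.3.

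GH3 enzymes conjugate auxin to amino acids and so lower its active pool. GH3.6 (AT5G54510, DFL1), whose overexpression dwarfs plants in light, was at 38.1 RPKM in wild-type plants and 20.9 in the mutant, 1.83-fold lower (1.65 to 2.02). GH3.5 (AT4G27260, WES1), which acts on auxin and salicylic acid, was at 20.3 RPKM in wild-type plants and 10.6 in the mutant, 1.92-fold lower (1.66 to 2.21). GH3.3 (AT2G23170) was at a lower level and on the other side, at 2.28 RPKM in wild-type plants and 3.99 in the mutant, a ratio of 1.75 (1.26 to 2.47). GH3.2 was outside the table. GH3.3 and IAA3 were the members in the table with 50-base windows shared with another gene, 0.338% for GH3.3, and the other 20 had none.

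PIN7 (AT1G23080), which acts in embryo, root and stem transport, was at 35.3 RPKM in wild-type plants and 13.0 in the mutant, 2.71-fold lower (2.42 to 3.03). PIN7 lies on chromosome 1 from 8180189 to 8183650, and the 300 bases before its start held no TGTCTC or TGTCGG. PIN3 and PIN4, the closest relatives of PIN7, were outside the table.

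The direction of some higher members depended on how the genotypes were scaled. The table's median log2 ratio was 0.70. Dividing this out by the median of ratios, which presumes that most genes do not differ and so is not met by a table of differing genes, left all 11 lower members below 1. Of the 11 higher members 5 stayed above 1, namely IAA26, ARF5, ARF17, ARF18 and GH3.3, at ratios of 1.01 to 1.08. ARF1, ARF6, ARF16, TIR1 and AFB2 were below 1, at 0.927 to 0.984. Under quantile normalization all 22 kept their direction. The counts over all rows did not change either, at 4711 above 1 and 2080 below. This step therefore says nothing particular to the members.

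**Figure D4:**
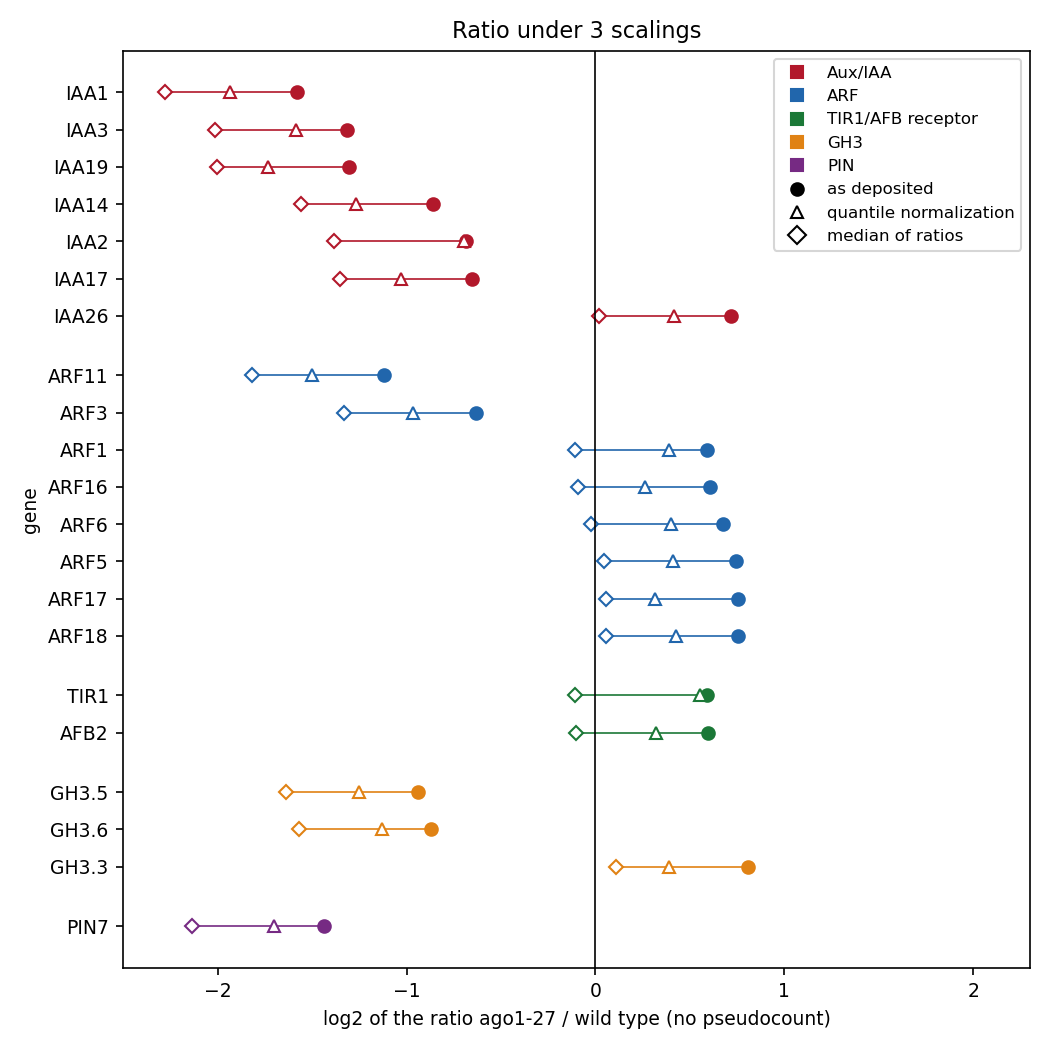
Log2 ratio of ago1-27 to wild type of 21 members as deposited (filled circles), after quantile normalization (triangles) and after the median of ratios (diamonds). The 11 lower members stay below 0 in all 3, while the diamonds of the higher members lie close to 0. Diamonds move every gene left by the same amount, so those of the lower members lie below 0 by construction.

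Other steps of the pathway were read from lists of 156 further genes. Of these 49 were in the table, 23 higher and 26 lower, beside 69.4% of all rows higher and 30.6% lower. Auxin synthesis had 4 of 14 genes in the table. YUC2, a flavin monooxygenase that makes auxin from indole-3-pyruvate, was at 0.619 RPKM in wild-type plants and 2.501 in the mutant, a ratio of 4.04 (2.26 to 7.35), and was called higher. YUC4, at 0.185 and 1.18 RPKM, and the aminotransferase TAA1, at 4.15 and 6.85, had ratios above 1. TAR2 was at 9.75 and 6.18 RPKM. None of these was called. The list of other auxin carriers and their kinases PID and D6PK had 5 of 18 in the table, 4 of them lower. PIN5, a carrier of the endoplasmic reticulum, was at 2.79 RPKM in wild-type plants and 0.539 in the mutant, 33 and 7 reads of 1 library per genotype, and was called lower, 5.18-fold (2.25 to 13.9). ABCB4, a transporter of the P-glycoprotein type, was at 8.08 RPKM in wild-type plants and 3.33 in the mutant and was called lower as well.

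The list for auxin conjugation, hydrolysis and oxidation showed 3 higher and 1 lower of 12 genes, and what each enzyme acts on was not examined. The lower one, GH3.10 (DFL2), was called, at 54.5 RPKM in wild-type plants and 18.8 in the mutant, 2.901-fold lower (2.67 to 3.15), with 11.04% of its windows shared with the overlapping AT4G03410. The hydrolases ILR1, ILL2 and ILL3, which release auxin from conjugates, had ratios of 1.77 to 2.14. All 4 genes in the table of the 12 co-repressors and SCF ligase components were higher, beside 69.4% of all rows. They were uncalled, at 1.55-fold to 1.76-fold, the largest being SGT1B. None of the TOPLESS family was in the table. Of 10 auxin output factors 3 were in the table and lower. ARGOS, a regulator of organ size, was at 3.07 RPKM in wild-type plants and 0.679 in the mutant, 4.52-fold lower (2.01 to 11.02). HAT2, an auxin-induced homeobox factor, was at 13.3 and 5.96 RPKM. Both were called. None of the 10 remaining ARF and AFB genes was in the table.

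SAUR genes, small auxin-induced genes many of which promote cell expansion, had 29 of 80 in the table, 17 lower and 12 higher. Of these 12 were called lower and 8 higher, beside 10.5% and 11.3% of all rows compared. With RPKM of at least 5 as the minimum the counts were 1 lower and 5 higher, and the share of all rows was not computed there. The median difference was -0.95 in log2(RPKM + 1). The lower calls included SAUR57, at 4.71 RPKM in wild-type plants and 0.07001 in the mutant, about 1 read, 67.3-fold lower with an interval from 8.65 to 2033. SAUR48 was at 1.80 and 0.110 RPKM, also about 1 read in the mutant, 16.4-fold lower (1.61 to 478). SAUR46 was at 3.85 and 0.377 RPKM, 10.2-fold lower (3.25 to 53.3). SAUR13 was at 2.97 and 0.361 RPKM, 2 reads in ago1-27, and 88.1% of its windows also occur in AT4G38820. On the other side SAUR71 was at 3.07 RPKM in wild-type plants and 15.1 in the mutant, 4.91-fold higher (3.24 to 7.40). SAUR12 was at 0.653 and 5.39 RPKM, and SAUR51 at 0.422 and 4.002. The reference names AT5G01830 SAUR21 but describes an ARM repeat protein. It was counted by its name, was not called, and leaves 28 of 79 without it.

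**Figure D5:**
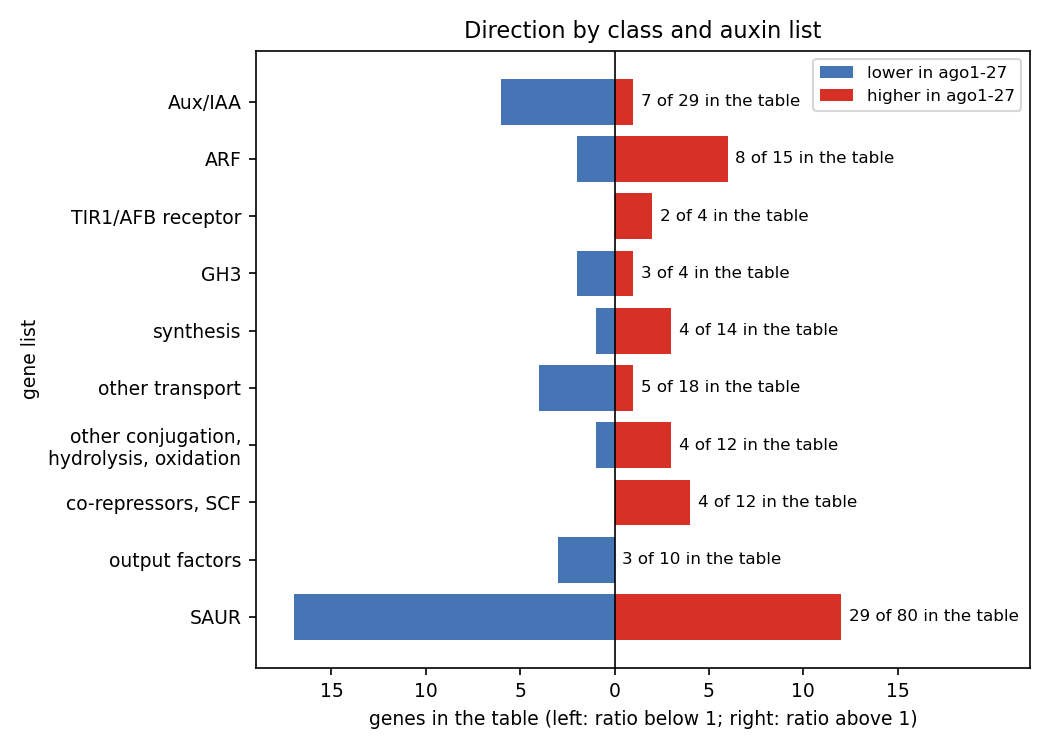
Number of genes in the table with a ratio of ago1-27 to wild type below 1 (left) and above 1 (right), for 4 classes and for 6 further auxin lists; text gives how many of each list were in the table. Aux/IAA (6 lower, 1 higher), other transport (4 and 1) and output factors (3 and 0) point left. ARF (2 and 6), receptors (0 and 2) and the SCF list (0 and 4) point right, as do 69.4% of all rows. The ARF counts are near that share.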

How the data were processed

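Single-end reads of 50 nt came from libraries that keep no strand, per the labels' protocols. The submitters' processing notes name TopHat2 2.0.11 and build TAIR10. A counting tool, or the rule by which genes entered the table, is not given in the sources used here. Deposited by the authors were 1 RPKM per genotype and, beside them, a ratio (mutant over wild type), per the file headers. This ratio equals the RPKM quotient to 4.17e-08. No test was possible, since the 3 replicates have no values of their own.

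Members and lists were chosen with earlier results of these data known. Every member in the table is named except 1 that is not reported here and is left out of the figures; it stays in the counts and medians, and from each other auxin list the called genes, up to 6 by difference in log2(RPKM + 1), or the largest. Genes named besides these (SAUR48, YUC4, TAA1, TAR2, ILR1, ILL2, ILL3) were chosen after their values were seen. All 56 member names matched the reference, as did 6772 of 6791 rows. Coordinates, lengths and sequences come from TAIR10.1, not the authors' annotation. Protein sequences were not used, so the planned protein feature was left out.

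Library sizes were searched between 8000000 and 20000000 reads as those that make most low values whole reads. Reads were estimated from RPKM, the longest transcript and the mean library (11845532 and 11955563 reads). For 614 rows (9.04%) the pair of values fitted integer reads from a single library on each side at 1 length, and these reads were used. The calls, the quantile normalization and the fit of single-library rows were tested on simulated data. The search for library sizes and the median of ratios were not. Alternatives were pseudocounts of 0.5, 0.1 or none, no minimum, RPKM of at least 5, the median of ratios, quantile normalization, and leaving out rows of 1 library. Computation used scipy 1.17.1, numpy 2.4.6, pandas 2.3.3 and matplotlib 3.10.9 under Python 3.11.15.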

Additional observations from a re-analysis of the deposited data

How the results depend on the processing

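No paired analysis was possible because the table gives 1 value per genotype, and leaving out replicates was not possible for the same reason. The share of all rows called was not computed for the alternatives. The counts below therefore cannot be set against the table and are no result about the members. Members called lower, 3, became 5 with a pseudocount of 0.5, 0.1 or none, when IAA19 and ARF11 passed, 11 by the median of ratios and 8 by quantiles. No member was called higher under any of the 8 alternatives. Lower Aux/IAA genes, 2, became 6 by the median of ratios and 4 by quantiles. Lower ARFs, 0, became 1 with the pseudocounts of 0.5, 0.1 or none and after quantile normalization, and 2 after the median of ratios. Lower GH3 genes, 0, became 2 under both rescalings. The median log2 difference of the 22 members, -0.01, moved to -0.58 with RPKM of at least 5 or without rows of 1 library, -0.65 by the median of ratios and -0.22 by quantiles. That of the Aux/IAA genes, -0.70, was -0.84 with a pseudocount of 0.1, -0.86 without one, -1.37 by the median of ratios and -1.03 by quantiles. That of the ARFs, 0.60, changed sign to -0.052 by the median of ratios and was 0.32 by quantiles. SAUR genes called higher, 8, became 5 with RPKM of at least 5 and 3 under both rescalings, and those called lower, 12, became 1 with RPKM of at least 5. The other auxin lists had 1 higher and 5 lower calls. The higher count became 2 with a pseudocount of 0.5, 3 with 0.1 or none and 0 with RPKM of at least 5 or under both rescalings. The lower count became 3 with RPKM of at least 5 and 9 after the median of ratios. A stricter minimum leaves fewer genes. The median of ratios divides every ratio by 1.62 by construction, so lower calls cannot fall in any list. The cause of the other shifts was not tested. Counting error limits IAA19, IAA14, GH3.3 and most SAUR genes, and variation between plants is not covered by any interval.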

Other observations

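SAUR genes stand in runs along the chromosomes, counted here as neighbours at most 20 kb apart. This grouping was chosen after the values were seen, so it is a description. The 5 runs of at least 4 SAUR genes held 30 of the 80 genes. Of the 14 that had a row 11 were lower in ago1-27 and 3 higher, beside 30.6% and 69.4% of all rows. Of the 41 SAUR genes that stand alone, 11 were in the table, 5 lower and 6 higher. In the run on chromosome 1 from 10301377 to 10323239, all 4 genes in the table, SAUR63, SAUR65, SAUR66 and SAUR68, were lower. In the run on chromosome 3 from 976715 to 983768, SAUR26, SAUR27 and SAUR29 were lower. The run on chromosome 4 from 18121526 to 18131284 was mixed, with SAUR14 and SAUR16 higher and SAUR13 lower. So was that on chromosome 4 from 16577180 to 16599568, with SAUR1 and SAUR3 lower and SAUR49 higher. In the run on chromosome 5 from 5962773 to 5984308, SAUR24 alone was in the table, and lower. Among lower genes SAUR65 had 2 and SAUR63 about 7 reads in ago1-27, while SAUR66 had about 70. Some genes of a run are close copies: SAUR63 shared 29.3% of its 50-base windows with other genes and SAUR68 25.1%, so the values of these genes are not separate observations.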
